A study of Mus musculus with 6 samples.

Results

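The genes described here are those of fatty acid oxidation and of the peroxisome: peroxins (Pex genes), acyl-CoA thioesterases (Acot), peroxisomal acyl-CoA oxidases (Acox), acyl-CoA dehydrogenases (Acad), the carnitine palmitoyltransferases, the electron-transferring flavoproteins, the enzymes of the later oxidation steps, Ppara, Ppard and Pdk4. They were taken by gene symbol, from the authors' deposited table of all genes. The symbols were chosen with earlier results of these data known, so shares set beside all genes are descriptions only. The symbols matched 57 of 14472 rows, each on a single row, and all 57 had an adjusted p. Acot1, a close relative of Acot2, was not analysed here.

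Cells burn fatty acids in mitochondria and peroxisomes. Long chains are joined to coenzyme A, carried into mitochondria as carnitine esters and shortened by repeated rounds of dehydrogenation, hydration, a further dehydrogenation and thiolysis, while peroxisomes shorten very long and branched chains with oxidases in place of dehydrogenases. Peroxins build the peroxisome: some import its enzymes, others insert its membrane proteins, and the Pex11 family lengthens and divides the organelle. In liver, muscle and fat, nuclear receptors of the PPAR family, bound to DNA as partners of RXR receptors, switch on many of these genes.

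RNA came from mLPS1, a mouse cell line described as dedifferentiated liposarcoma, a malignant tumour of the fat lineage. Of 6 libraries of total RNA, 3 are labelled NICD knockout (p numbers 34, 36 and 39) and 3 wild type (p numbers 35, 37 and 40), and the sources used here do not say what the p number counts. NICD is the Notch intracellular domain, the part of a Notch receptor that activation sets free to act on genes. Over-expression of Notch is named in the title of the series, and dNICD cells in its design text. It is not stated whether an introduced Notch fragment is present in the wild type line, or whether the altered line is 1 clone. No treatment is named for either line. Separate cultures within a line are not mentioned in the labels, and the p-values therefore reflect the spread among these 6 libraries only, and that spread may be technical.

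A single comparison was available, NICD knockout over wild type, and its direction rests on the name that the authors gave the table. For each gene the authors' deposited table holds a normalised count averaged over libraries, the log2 fold change and its standard error (SE), a p-value and an adjusted p. No values of single libraries were used, so the depth of each library is unknown and group levels below are fitted from the mean and the fold change. A normalised count is a read count corrected for library size and not for gene length, so levels are compared between groups and never between genes. A gene is said to rise or fall in the knockout where its adjusted p lies under 0.05, and intervals are 95% Wald intervals of the log2 fold change. Notch1 itself had fitted levels of 2234 in the knockout and 7665 in wild type (log2 fold change -1.78, adjusted p = 1.08e-38 in the authors' deposited table), a value that does not separate an introduced from the cell's own transcript. Heyl and Nrarp, direct targets of Notch, had fitted levels of 10.4 and 126.6 in the knockout, against 16696 and 10040.1 in wild type, from the authors' deposited table. Of 11 markers of mesenchymal cells and sarcoma 10 had a row, and 5 were higher and 4 lower (the authors' deposited table). Their fitted levels summed to 164409 in the knockout and 298645 in wild type, sums that, like those below, are carried by the most abundant genes of a list. Of 10 adipocyte markers 5 had a row, of which Fabp4 and Lipe were higher and Lpl lower (the authors' deposited table). They summed to 847.8 in the knockout and 2303 in wild type, of which Lpl gave 414.4 and 2229, and Adipoq, Plin1, Lep, Cidec and Retn were not analysed here. Of 7 macrophage markers 4 had a row, of which Cd68 and Lyz2 were higher and Csf1r and the general leukocyte gene Ptprc did not pass (the authors' deposited table). They summed to 2431 in the knockout and 291.7 in wild type, of which Cd68 gave 2238 and 179.0. Csf1r had fitted levels of 22.5 in the knockout and 20.8 in wild type (adjusted p = 0.929 in the authors' deposited table), and Ptprc had 13.7 and 3.74 (adjusted p = 0.302). The 2 epithelial genes with a row, Krt8 and Krt19, were both higher in the authors' deposited table and summed to 79.5 in the knockout and 6.31 in wild type. Of the 6 endothelial genes 1 was lower and none higher in the authors' deposited table, and they summed to 102.7 in the knockout and 129.5 in wild type. Adgre1, Aif1, Itgam, Epcam, Krt18, Cdh1 and Krt5 were not analysed here. The part of these cell types in the results below was not tested.

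The steep changes lay in a few genes, while most genes grouped under the mitochondrial steps moved little. Pex5l, Pex11a and Pdk4 rose more than 10-fold in the knockout by the authors' deposited table, Ehhadh, Acot2 and Acot11 rose between 3.67-fold and 4.92-fold, and the thiolase gene Acaa2 fell 3.90-fold. The call of Acot2 was lost when the change of its chromosomal neighbours was subtracted (log2 fold change 0.85, adjusted p = 0.319, Wald test). In counts, 20 of the 57 genes rose and 9 fell in the authors' deposited table, and 28 did not pass. Among all genes 50.5% passed, 25.4% as higher and 25.1% as lower, against 50.9%, 35.1% and 15.8% of the 57. The share of the 57 that passed therefore lay at the level of the whole table. Of the 57, 10 genes (17.5%) passed at 2-fold or more, against 23.2% of all genes, and of these 8 rose and 2 fell, where the shares of all genes were 13.4% and 9.74% (the authors' deposited table). For the 57 the median log2 fold change was 0.15, beside 0.02 over all tested genes, and no test of the group was made. As this is bulk RNA, a smaller share of cells that express a gene and less of its RNA per cell cannot be told apart.

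**Figure D1:**
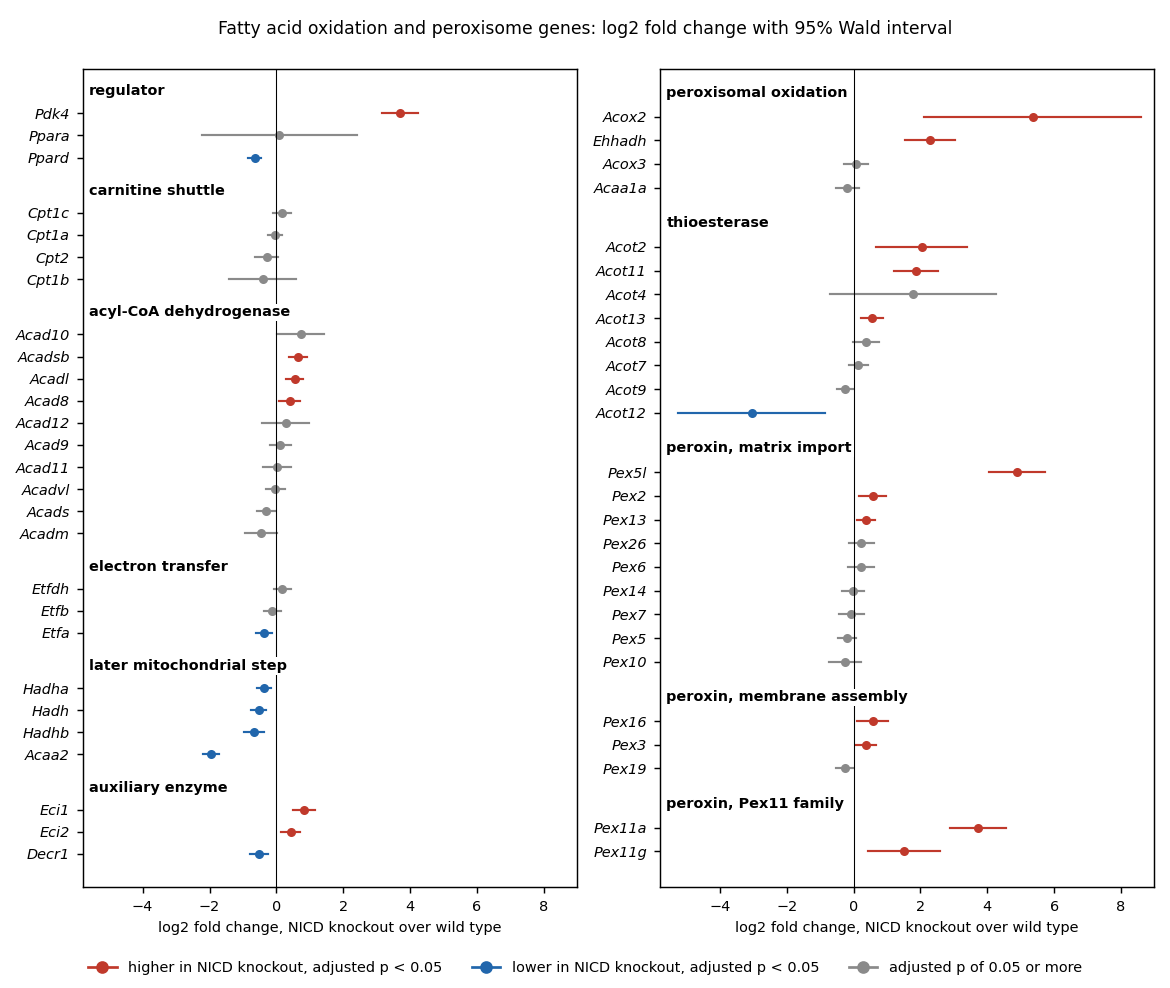
Log2 fold change of 53 of the 57 genes, NICD knockout over wild type, grouped by role. Points are the deposited fold changes, bars their 95% Wald intervals, and colour marks the call. The 4 genes of the later mitochondrial step lie left of 0 with their intervals, while Pdk4, Pex5l, Pex11a, Ehhadh, Acox2 and Acot11 lie to the right with lower limits above 1. Acox2 and Acot11 did not pass the Wald test for a change beyond 2-fold (adjusted p = 0.0718 and 0.0756).

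Abundance divided the group, as it did all genes. The 45 members with mean counts of 100 or more had 14 rises and 8 falls in the authors' deposited table. Their median log2 fold change was 0.03, and only Pdk4, Acot2 and Acaa2 among them (6.67%) passed at 2-fold or more. At such means 17.5% of all genes did. The other 12, with means below 100, had 6 rises and 1 fall in the authors' deposited table, all of at least 2-fold, and a median log2 fold change of 1.65. A called change at such means was mostly large in all genes too, with 1512 of 1585 called genes at 2-fold or more. The same lean is seen in all genes below 100, where 28.1% rose and 11.6% fell in the authors' deposited table and the median was 0.60, against 24.4% and 30.2% of genes with a mean of at least 100. The sources used here do not give the authors' filter on low counts, so whether it shapes this lean was not tested.

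**Figure D2:**
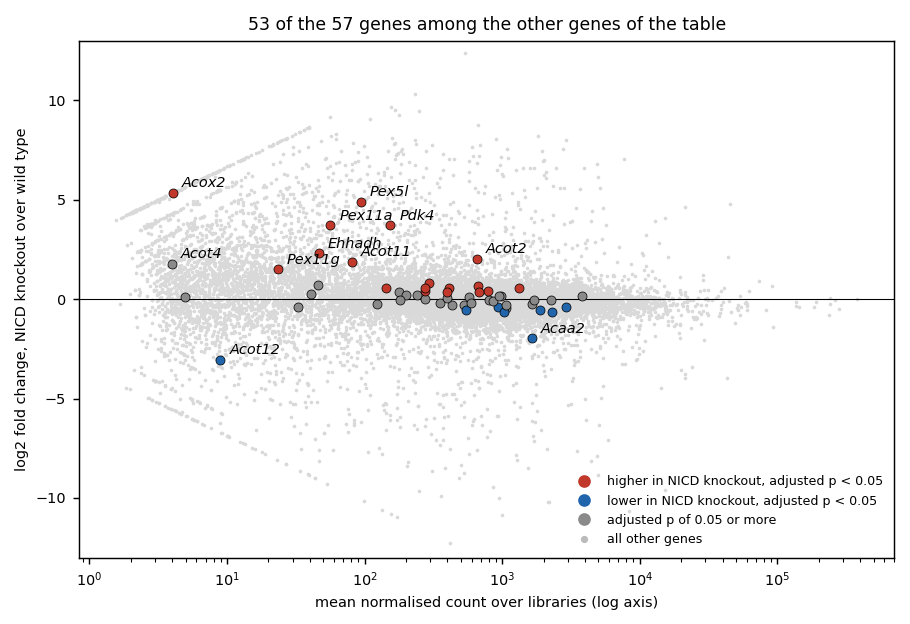
Log2 fold change (NICD knockout over wild type) against the mean normalised count (log axis), with 53 of the 57 genes over other genes in grey. Genes of the group with a fold change of at least 2-fold either way are named whatever their call, and Acot4 among them did not pass. Apart from Pdk4, Acot2 and Acaa2 they have means below 100, where the grey cloud is also wide.

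Among the regulators, Pdk4 rose and Ppard fell. Pdk4 (ENSMUSG00000019577) encodes the kinase that shuts down pyruvate dehydrogenase and so spares glucose when fat is burned, and it is a well known PPAR target. Its fitted level was 285.1 in the knockout and 21.8 in wild type, 13-fold higher (log2 fold change 3.71, SE 0.27, adjusted p = 1.22e-40 in the authors' deposited table). Ppard (ENSMUSG00000002250) encodes the PPAR receptor found in most tissues. It had fitted levels of 1783 in the knockout and 2796 in wild type, with a log2 fold change of -0.65 (SE 0.10, adjusted p = 1.38e-10 in the authors' deposited table). Ppara, which encodes the receptor that drives fatty acid oxidation in liver, was close to the lower limit of measurement. Its fitted levels were 5.15 in the knockout and 4.84 in wild type, and the interval of its log2 fold change, -2.24 to 2.42, does not exclude a change of 4-fold in either direction (adjusted p = 0.957 in the authors' deposited table).

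Promoter sequences are shown for Pdk4, Pex11a and Ehhadh, PPAR targets of liver with some of the steepest rises here. These genes are examples and do not stand for PPAR targets as a set. Their promoters are the stretches where shared receptor or Rbpj motifs could be looked for. Each runs 5′ to 3′ over the 250 bases before the annotated start, from RefSeq on build GRCm38.p6, and all 3 genes lie on the minus strand. The windows are chr6:5496279-5496528 for Pdk4, chr7:79743132-79743381 for Pex11a and chr16:21787835-21788084 for Ehhadh. Capitals mark a match to a motif searched.
Pdk4: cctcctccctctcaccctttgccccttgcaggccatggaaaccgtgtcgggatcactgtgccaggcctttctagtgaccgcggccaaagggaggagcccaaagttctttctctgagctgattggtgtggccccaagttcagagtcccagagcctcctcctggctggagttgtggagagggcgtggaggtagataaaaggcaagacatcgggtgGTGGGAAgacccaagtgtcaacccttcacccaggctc
Pex11a: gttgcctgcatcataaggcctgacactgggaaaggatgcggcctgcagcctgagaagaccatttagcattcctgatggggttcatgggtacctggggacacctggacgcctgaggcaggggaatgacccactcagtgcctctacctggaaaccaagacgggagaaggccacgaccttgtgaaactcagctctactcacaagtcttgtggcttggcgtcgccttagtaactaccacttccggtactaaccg
Ehhadh: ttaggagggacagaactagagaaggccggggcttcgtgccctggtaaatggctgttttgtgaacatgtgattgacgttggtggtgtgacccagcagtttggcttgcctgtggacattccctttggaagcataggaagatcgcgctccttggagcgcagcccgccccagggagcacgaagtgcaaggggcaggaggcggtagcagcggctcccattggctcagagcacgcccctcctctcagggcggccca

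The motifs searched on both strands were AGGTCA, the hexamer bound by nuclear receptors, its direct repeat AGGTCANAGGTCA, the looser repeat AGGNCANAGGNCA, which includes every match of the stricter one, and GTGGGAA, the core bound by Rbpj, the DNA-binding partner of NICD. RefSeq promoters matched 45 of the 57 genes with 50 windows, and the other 12 genes, Acaa2 and Pex5l among them, had no entry. The hexamer was in 7 of the 50 windows (14.0%), the same share as in all 32851 windows of the table (14.0%). Those 7 belong to Acadm, Acadvl, Acot12, Acot4, Cpt1a, Cpt1c and Pex11g, of which Pex11g rose and Acot12 fell. Neither repeat occurred in the 50 windows, and among all windows they were in 0.0335% and 0.338%. GTGGGAA was in 3 windows (6%), of Acot9, Pdk4 and Pex16, and in 5.42% of all windows. In Pdk4 it is the stretch in capitals, with 30 bases between it and the annotated start. A match is a match of letters only, and the windows are short.

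The carnitine shuttle showed no called change. Cpt1a encodes the liver form of the enzyme that commits long chains to mitochondria and is the usual point of control. Its fitted levels were 2227 in the knockout and 2280.3 in wild type, and its log2 fold change was -0.03 (interval -0.24 to 0.17, adjusted p = 0.813 in the authors' deposited table). Its interval excludes a change of 2-fold in either direction. Cpt1c, the form of nerve cells, had fitted levels of 1035 in the knockout and 915 in wild type (log2 fold change 0.18, interval -0.09 to 0.44, adjusted p = 0.278 in the authors' deposited table). Cpt2, which turns the carnitine ester back into acyl-CoA inside mitochondria, had 474.2 in the knockout and 579.9 in wild type (log2 fold change -0.29, interval -0.63 to 0.05, adjusted p = 0.151 in the authors' deposited table). Cpt1b, the muscle form, had fitted levels of 28.0 in the knockout and 37.3 in wild type, with an interval from -1.42 to 0.59 (adjusted p = 0.524 in the authors' deposited table).

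Acyl-CoA dehydrogenases open each round of mitochondrial oxidation, and 3 of 10 (30%) rose while none fell in the authors' deposited table, a share close to the 25.4% of all genes. The 3 were Acadl, for long chains, and Acadsb and Acad8, which act on breakdown products of branched amino acids. Acadsb had fitted levels of 817.9 in the knockout and 524.5 in wild type, a log2 fold change of 0.64 (SE 0.14, adjusted p = 1.37e-05 in the authors' deposited table). Acadl reached 1588 in the knockout, against 1081 in wild type (log2 fold change 0.55, SE 0.13, adjusted p = 8.37e-05 in the authors' deposited table). Acad8 stood at 0.40 on the log2 scale in the authors' deposited table. The dehydrogenases for very long, medium and short chains, Acadvl, Acadm and Acads, did not pass, at -0.04, -0.46 and -0.30 in the authors' deposited table. Acadm had an SE of 0.25 in the authors' deposited table, larger than in 94.0% of the 200 genes nearest to it in mean. Acad9, Acad10, Acad11 and Acad12 did not pass either, and the authors' deposited table gave them log2 fold changes of 0.12, 0.72, 0.03 and 0.28.

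Electrons from these enzymes pass through the flavoprotein made of Etfa and Etfb to Etfdh, which hands them to ubiquinone. Etfa fell, with fitted levels of 812.7 in the knockout and 1054 in wild type (log2 fold change -0.37, SE 0.12, adjusted p = 0.00379 in the authors' deposited table). Etfb and Etfdh did not pass, and the authors' deposited table gave them log2 fold changes of -0.12 and 0.18.

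The 4 genes of the later mitochondrial steps in the group all fell in the authors' deposited table, where 25.1% of all genes were lower. Outside the group, Echs1 did not pass, at -0.11, and Hsd17b10 rose, at 0.34, in the authors' deposited table. Hadha lost its call when the change of its chromosomal neighbours was subtracted (log2 fold change -0.08, adjusted p = 0.555, Wald test). Acaa2 (ENSMUSG00000036880), the thiolase that splits off acetyl-CoA, had fitted levels of 672.5 in the knockout and 2621 in wild type. That is 3.90-fold lower (log2 fold change -1.96, interval -2.21 to -1.72, adjusted p = 6.68e-53 in the authors' deposited table), the only gene past 2-fold from the carnitine shuttle to the auxiliary enzymes. Hadhb and Hadha, the subunits of the trifunctional protein that works on long chains, had log2 fold changes of -0.66 and -0.38 (SE 0.15 and 0.11) in the authors' deposited table. Hadh, the dehydrogenase for shorter chains, had fitted levels of 1541 in the knockout and 2225 in wild type, a log2 fold change of -0.53 (SE 0.11, adjusted p = 1.50e-05 in the authors' deposited table).

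Auxiliary enzymes, which deal with the double bonds of unsaturated chains, moved in both directions. The isomerase genes Eci1 and Eci2 rose, with log2 fold changes of 0.82 and 0.43 (SE 0.17 and 0.15) in the authors' deposited table, and the reductase gene Decr1 fell, at -0.53 (SE 0.14). Across the 24 genes grouped under these steps, from the shuttle to the auxiliary enzymes, the authors' deposited table had 5 (20.8%) higher and 6 (25%) lower. Among all genes 25.4% were higher and 25.1% lower. The median log2 fold change of the 24 was -0.04, and they were grouped by role, not by where each protein lies.

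**Figure D3:**
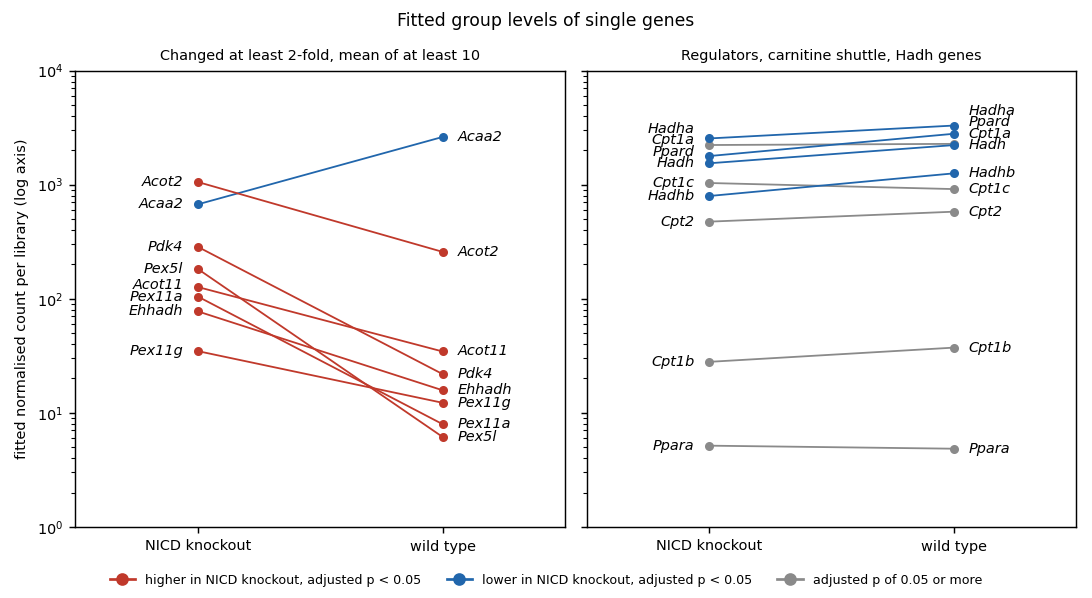
Fitted normalised counts per library (log axis) in NICD knockout, left, and wild type, right, of each panel. Lines join the 2 fitted levels of a gene, which carry no error bars. On the left, genes with a called change of at least 2-fold and a mean of at least 10 descend toward wild type except Acaa2, and on the right Cpt1a and Ppara run nearly flat.

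In peroxisomal oxidation 3 of 5 genes rose and none fell in the authors' deposited table, where 25.4% of all genes were higher. Ehhadh (ENSMUSG00000022853), the bifunctional enzyme of the hydration and dehydrogenation steps, had fitted levels of 77.5 in the knockout and 15.8 in wild type. It was 4.92-fold higher (log2 fold change 2.30, SE 0.38, adjusted p = 1.20e-08 in the authors' deposited table). Acox2, an oxidase for bile acid precursors and branched chains, was scarce: 7.91 in the knockout and 0.192 in wild type, below the floor of 1 normalised count per library (3 over the group). With wild type set at that floor its log2 fold change was 2.98, in place of the fitted 5.36 (SE 1.65, adjusted p = 0.00334 in the authors' deposited table). Acox3, for branched chains, and the thiolase gene Acaa1a did not pass, and the authors' deposited table gave them log2 fold changes of 0.07 and -0.18.

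Acyl-CoA thioesterases release free fatty acids and coenzyme A from acyl-CoA, and 3 of 8 (37.5%) rose while 1 fell in the authors' deposited table, beside 25.4% and 25.1% of all genes. Acot11, known in mouse brown fat as a brake on heat production, had fitted levels of 126.7 in the knockout and 34.5 in wild type, 3.67-fold higher (log2 fold change 1.88, SE 0.34, adjusted p = 1.35e-07 in the authors' deposited table). Acot2, the mitochondrial form, had 1056 in the knockout and 257.6 in wild type, 4.10-fold higher. Its log2 fold change of 2.04 was imprecise (SE 0.69, adjusted p = 0.00834 in the authors' deposited table), with an SE larger than in 99.0% of the 200 genes nearest in mean, whose median was 0.15. Acot2 shares 29.9% of its words of 31 bases with Acot1, and after subtraction of its neighbours' median log2 fold change of 1.19 it no longer passed. Acot13, a thioesterase associated with mitochondria, stood at 0.56 on the log2 scale in the authors' deposited table. Acot12, which hydrolyses acetyl-CoA, fell on few counts: 1.93 in the knockout and 16.0 in wild type (log2 fold change -3.05, interval -5.25 to -0.85, adjusted p = 0.0155 in the authors' deposited table). Acot4, Acot7, Acot8 and Acot9 did not pass, and the authors' deposited table gave them log2 fold changes of 1.79, 0.15, 0.37 and -0.26.

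Of 17 peroxins the authors' deposited table had 8 higher (47.1%, beside 25.4% of all genes), 1 lower and 8 that did not pass, and their median log2 fold change was 0.23. In the Pex11 family, Pex11a (ENSMUSG00000030545), the form that PPAR agonists induce in rodent liver, had fitted levels of 104.5 in the knockout and 7.95 in wild type. It was 13.1-fold higher (log2 fold change 3.72, interval 2.87 to 4.56, adjusted p = 8.39e-17 in the authors' deposited table). Pex11g had 34.7 in the knockout and 12.2 in wild type (log2 fold change 1.51, interval 0.44 to 2.57, adjusted p = 0.0138 in the authors' deposited table).

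Matrix import starts with the receptors Pex5 and Pex7, which recognise the signals on peroxisomal enzymes. They did not pass, their log2 fold changes being -0.20 and -0.07 (intervals -0.46 to 0.07 and -0.45 to 0.32) in the authors' deposited table. Pex5l (ENSMUSG00000027674), a relative of Pex5 best known in brain, where it binds and controls HCN channels, had the steepest rise of any gene of the group with a mean of at least 10. Its fitted levels were 182.4 in the knockout and 6.14 in wild type, 29.7-fold higher (log2 fold change 4.89, SE 0.43, adjusted p = 2.96e-28 in the authors' deposited table). Of the docking pair, Pex13 rose, at a log2 fold change of 0.37 (SE 0.14), and Pex14 did not pass, at -0.03, in the authors' deposited table. Of the ubiquitin ligases that mark the receptor for recycling, Pex2 rose, at 0.57 (SE 0.21), and Pex10 did not pass, at -0.26, in the authors' deposited table. Pex6, an ATPase that helps to pull the receptor out of the membrane, and its anchor Pex26 did not pass, and the authors' deposited table gave both a log2 fold change of 0.23.

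Membrane proteins are brought in by Pex19, Pex3 and Pex16. Pex16 and Pex3 rose, at log2 fold changes of 0.57 and 0.38 (SE 0.23 and 0.15), and Pex19 did not pass, at -0.27, in the authors' deposited table. Without the Pex11 family and Pex5l, 13 peroxins remained, with 5 rises (38.5%) and 1 fall (7.69%), none as large as 2-fold in the authors' deposited table. Among all genes 25.4% were higher and 25.1% lower. Of the 5 rises, those of Pex2, Pex13, Pex3 and Pex16 did not pass at an adjusted p under 0.01.

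Each gene was also set beside the median log2 fold change of up to 10 expressed protein-coding genes on each side of it, expressed meaning a mean of at least 100. For 13 of the 57 genes that median was at least 0.3 either way, 9 above and 4 below, and 24.5% of all genes had such neighbours. Pdk4 on chromosome 6 and Ehhadh on chromosome 16 rose where their neighbours had medians of -0.68 and -0.48. Acaa2 on chromosome 18 fell where its neighbours had a median of 0.36, and Pex11a on chromosome 7 had neighbours at -0.02. Pex5l on chromosome 3 had neighbours at 0.41, well under its own 4.89. Acot2 on chromosome 12 had neighbours at 1.19, more than any other gene of the group named here except Acot4 at 1.41. Eci2 on chromosome 13 had neighbours at 0.44 and did not pass after subtraction, at a log2 fold change of -0.012. Acot13, Etfa, Hadha, Pex13 and Pex3 did not pass either, at 0.28, -0.24, -0.08, 0.28 and 0.23. Conversely Acot9, Pex26, Acot8, Acadm, Cpt2 and Acad9 passed after subtraction, at log2 fold changes of -0.62, 0.68, 0.59, -0.67, -0.42 and -0.39, and of these Acad9 had the opposite sign before it. On this scale 15 of the 57 genes were higher and 11 lower. Of all 14447 genes tested on it, 3775 were higher and 3069 lower. The share of the 57 that was higher then lay near that of all genes.

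**Figure D4:**
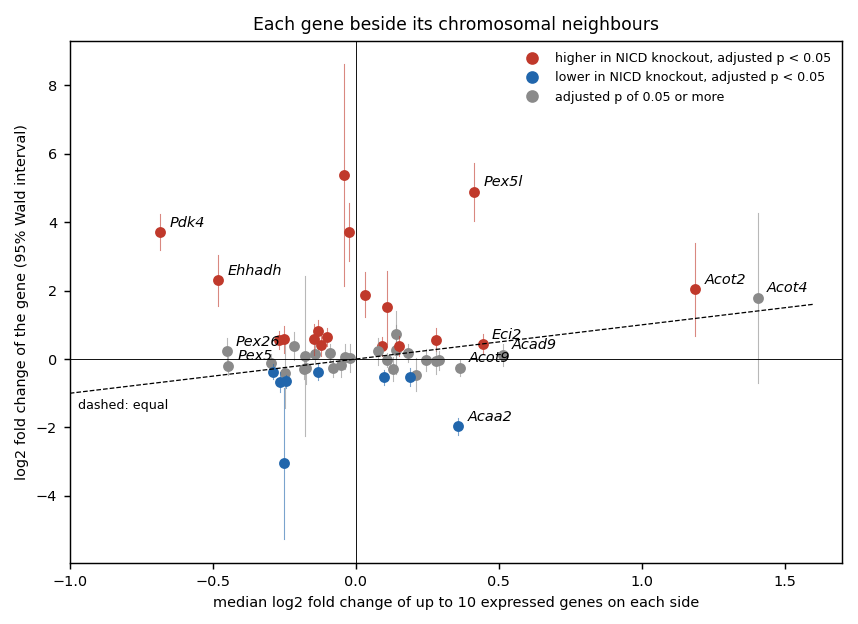
Log2 fold change of 53 of the 57 genes (points, with 95% Wald intervals) against the median log2 fold change of up to 10 expressed genes on each side. The dashed line marks equality, and genes whose neighbours have a median of at least 0.3 either way are named. Acot2 and Eci2 lie near or within reach of the line, while Pdk4 and Ehhadh lie far above it on the left.

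Sequence shared with other genes limits some values. In transcripts of the GENCODE M21 annotation, 12 of the 57 genes had at least 10% of their words of 31 bases also in another gene, and the median was 0.293%. Cpt1b shared 79.7% of its words, Etfb 49.9% and Acot2 37.3%, of which 29.9% were with Acot1. Acot9, Acad12, Acad10 and Hadhb shared between 23.3% and 28.4%, and Acad9, Acaa1a, Eci2 and Etfa between 10.8% and 19.1%. The sources used here do not say how reads of such stretches were divided, so these values are uncertain.

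Other genes of the pathway, from lists chosen by name with earlier results of these data known, moved unevenly. Among all genes 25.4% were higher and 25.1% lower. Further PPAR targets leaned upward: of 26, 16 were tested, and the authors' deposited table had 12 (75%) higher and 3 (18.8%) lower. Their median log2 fold change was 0.997. Fabp4, a fatty acid carrier, had fitted levels of 307.4 in the knockout and 4.37 in wild type, the lipid droplet gene Plin4 had 166.4 and 7.89, and Fabp3 had 654.9 and 184.8. Their log2 fold changes were 6.13, 4.40 and 1.83 in the authors' deposited table, and the 3 that fell, named after their values were seen, were Txnip, Hilpda and Acsl1. Ucp3, Fgf21, Plin5, Cidea, Cidec, G0s2, Cyp4a10, Cyp4a12a and Cyp4a14 were not analysed here. The main group itself was not sorted into PPAR targets and others, so whether its PPAR targets lean upward was not tested. In that group 20 genes rose, 9 fell and 28 did not pass. Cpt1a and Acadm did not pass, at log2 fold changes of -0.03 and -0.46, and Acaa2 fell, at -1.96, in the authors' deposited table. Of 25 partners and coregulators of the PPAR receptors 8 (32%) were lower and 3 (12%) higher (the authors' deposited table), at a median of -0.24. The share lower was not far from the 25.1% of all genes, and the share higher lay below their 25.4%. Rxra, the DNA-binding partner, had fitted levels of 987.4 in the knockout and 3108 in wild type (log2 fold change -1.65), and the corepressor gene Nrip1 fell at -1.41 in the authors' deposited table. Ppargc1a, a coactivator of oxidation genes named after its value was seen, had fitted levels of 19.996 in the knockout and 0.195 in wild type, and with wild type at the floor its log2 fold change was 4.32. Pparg, the receptor of fat cells, had fitted levels of 4.39 in the knockout and 14.4 in wild type and did not pass (log2 fold change -1.72, adjusted p = 0.0542 in the authors' deposited table).

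A list of mitochondrial acyl-CoA genes outside the group takes in breakdown of branched amino acids and propionate. It had 10 of 20 (50%) higher and none lower in the authors' deposited table, at a median log2 fold change of 0.34. The shares of all genes, here and for the lists that follow, were 25.4% higher and 25.1% lower. Echdc3, Echdc2 and Mmab led by adjusted p, at 3.81, 1.02 and 0.82 in the authors' deposited table. Of the 10, named after their values were seen, Mmab and Mmaa act in vitamin B12 handling, Bckdha, Bckdhb and Dbt form the complex that degrades branched amino acids, Decr2 is peroxisomal and counted in that list too, and Acss3, Hsd17b10, Echdc2 and Echdc3 complete them. Echs1, the hydratase of the core pathway, did not pass, at -0.11 in the authors' deposited table. Other peroxisomal enzymes and transporters divided evenly, with 9 of 42 (21.4%) higher and 9 (21.4%) lower and a median of -0.06 in the authors' deposited table. Both shares lay near those of all genes. Xdh and Mgst1 rose at 3.28 and 4.34 in the authors' deposited table, and neither acts in fatty acid oxidation. Catalase (Cat), which removes the hydrogen peroxide that the oxidases make, fell at -1.17 in the authors' deposited table. The list was chosen by name, and where each protein chiefly lies was not tested. Genes of fatty acid uptake and activation had 7 of 19 (36.8%) higher and 6 (31.6%) lower (the authors' deposited table), at a median of 0.01. Fabp4 and Fabp3 were among the rises, and Acsf2 fell at -1.25 in the authors' deposited table. In the remaining carnitine genes 1 of 8 (12.5%) rose, the translocase gene Slc25a20 at 0.44, and 1 (12.5%) fell, Slc22a21 at -0.72, in the authors' deposited table. Acacb did not pass, at -1.03 in the authors' deposited table. Genes of peroxisome division and turnover had 6 of 15 (40%) higher and 2 (13.3%) lower (the authors' deposited table), at a median of 0.31. Sqstm1 and Marchf5 stood at 1.19 and 0.76 in the authors' deposited table. Gdap1 had fitted levels of 36.1 in the knockout and 0.716 in wild type, a log2 fold change of 5.17 with wild type at the floor.

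Around Pdk4, the pyruvate dehydrogenase complex and its regulators had 3 of 10 (30%) higher and 2 (20%) lower (the authors' deposited table) at a median of -0.06. These shares lay near the 25.4% and 25.1% of all genes. Pdk1, the kinase best known from hypoxia, had fitted levels of 522.2 in the knockout and 1850 in wild type (log2 fold change -1.82), the opposite direction to Pdk4 in the authors' deposited table. Pdha1, a subunit of the enzyme itself, fell at -0.52, and Pdk2 rose at 0.55 in the authors' deposited table.

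**Figure D5:**
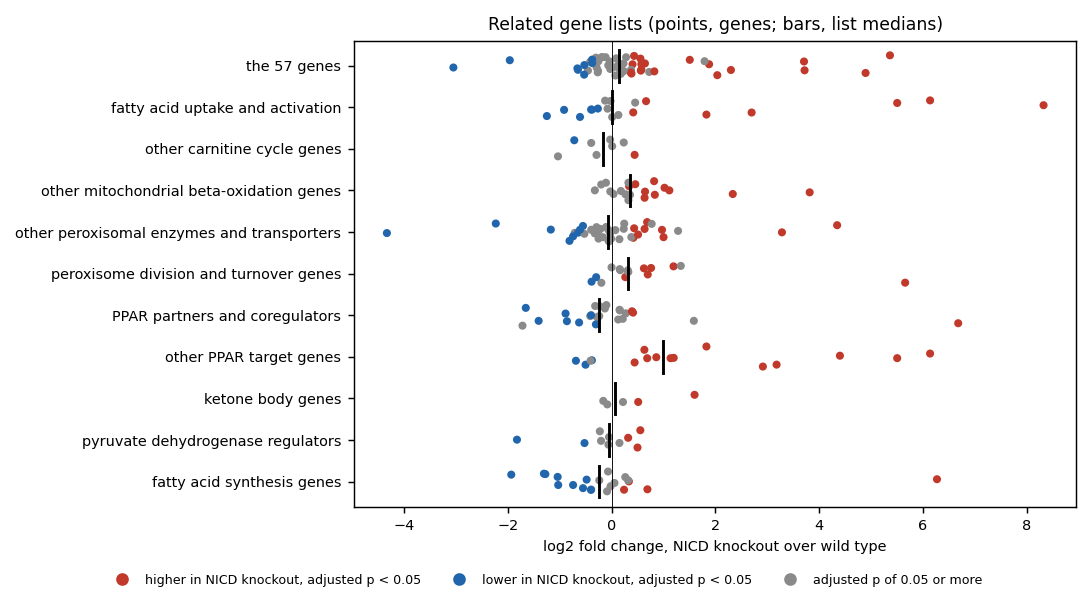
Fold changes on the log2 scale, NICD knockout over wild type, of the 57 genes and of 10 related gene lists, with points for genes reported here and a black bar at the median of all tested genes of a list. The list of other PPAR targets has its median at 0.997, and the other lists have theirs between -0.24 and 0.34. Some genes stand in more than 1 list.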

How the data were processed

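Salmon, DESeq2 and mm39 are the tools and build of the authors, per the submitters' processing notes, without versions, order or settings. For each gene the authors deposited an averaged normalised count, per the file headers, whose unit is taken as signal. The log2 fold change and its standard error, on the same log2 scale, were deposited beside it. The deposited Wald statistic, a score, and the deposited p-value and adjusted p-value follow from these, and recomputing them gave differences of at most 1.56e-13. Calls are the authors' own, adjusted by Benjamini-Hochberg over 14470 genes, since values of single libraries were not used. Depth per library is unknown.

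Computed here were 95% intervals (1.96 SE), group levels fitted on the assumption of 3 libraries per group, and neighbour medians over the 10310 protein-coding genes whose mean was 100 or more. Gene order came from GENCODE M21, on GRCm38, matched by identifier for 14456 rows (99.9%) and all 57 genes, so no coordinates of it are printed. Alternatives were other thresholds, filters on the mean, centring and subtraction of neighbours, repeating the Wald test. The functions were tested on simulated data. The 57 genes and the lists were chosen with earlier results of these data known. The rule was to name every one of the 57, in full where a called change reached 2-fold at a mean of at least 10, and from each list the 3 genes with the smallest adjusted p. Of the 57, 53 are named, and the remaining ones, like some genes of the lists, are counted but not reported here. Python 3.11.15, pandas 2.3.3, scipy 1.17.1 and matplotlib 3.10.9 were used.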

Additional observations from a re-analysis of the deposited data

How the results depend on the processing

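Counts of rises and falls among the 57 genes were 20 and 9. They were 8 and 3 under Bonferroni adjustment, and 4 (Pdk4, Pex11a, Pex5l and Ehhadh) and 1 (Acaa2) when the Wald test asked for a change beyond 2-fold. At an adjusted p under 0.01 they were 14 and 7, with a mean of at least 10 they were 19 and 8, with a mean of at least 100 they were 14 and 8, and with neighbours subtracted 15 and 11. Centring on expressed genes, whose median was -0.05, left them at 20 and 9, and so did taking all rows of a symbol. Among all 14470 tested genes 3675 rose and 3628 fell. Bonferroni adjustment left 1516 and 1659 of them, the test beyond 2-fold 930 and 676, and an adjusted p under 0.01 2904 and 2949. Centring gave 3976 and 3317. A mean of at least 10 gave 3416 and 3539 of 12920 genes, and of at least 100, 2577 and 3192 of 10479. With neighbours subtracted 3775 rose and 3069 fell of 14447. The median log2 fold change of the 57 lay between 0.03 and 0.20 over these settings. With that centring Acadvl, Cpt1a and Pex14, none of which passed, changed sign to 0.012, 0.016 and 0.022. With neighbours subtracted Acad9, Eci2, Etfb, Etfdh and Pex5 changed sign to -0.39, -0.012, 0.18, -0.0048 and 0.25, and the Wald test then treats the neighbour median as free of error. The cause of these changes was not tested. No paired analysis was possible because the table holds no values of single libraries. For the same reason leaving out each library and another count test were not run. Below a mean of 10 the SE limits the result, as for Ppara, Acot4, Acot12 and Acox2.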

Other observations

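Genes of fatty acid synthesis and desaturation, the opposite branch of the pathway, had 9 of 21 tested members (42.9%) lower in the knockout (the authors' deposited table). Another 4 (19.0%) were higher and 8 did not pass, where 25.1% of all genes were lower and 25.4% higher. The median log2 fold change of the list was -0.24 beside 0.02 over all genes, and the genes named next do not stand for all of it. Fads2, the desaturase that opens the synthesis of polyunsaturated chains, had fitted levels of 2247 in the knockout and 8587 in wild type, and the elongase gene Elovl6 had 837.7 and 1723. Their log2 fold changes were -1.93 and -1.04 in the authors' deposited table. Elovl7, another elongase gene, rose, with fitted levels of 145.2 in the knockout and 1.88 in wild type (log2 fold change 6.27, SE 0.71). The lipogenic regulators Mlxipl and Thrsp were not analysed here.

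Ketone body genes had 2 of 6 tested members (33.3%) higher and none lower in the authors' deposited table, at a median of 0.07. Among all genes 25.4% were higher and 25.1% lower. Bdh2 had fitted levels of 123.8 in the knockout and 40.9 in wild type, and Bdh1 had 501.3 and 351.7, and the authors' deposited table gave them log2 fold changes of 1.597 and 0.51.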
